A study of Mus musculus with 6 samples.

Results

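The genes described here are 35 markers of liver macrophages: the resident macrophages called Kupffer cells, the monocytes that enter the liver from blood, and their close relatives. They were taken from a list of symbols, each read from the probe set that names that gene alone and has the highest mean signal over all arrays. All 35 were measured, out of 22180 genes in all. Expression was measured on 6 arrays, 1 per mouse, of whole liver from male C57BL/6 mice. In 3 livers Sonic Hedgehog (SHH, the secreted ligand of the Hedgehog pathway) was expressed (mice 26, 28 and 31), and in 3 control livers green fluorescent protein (GFP, mice 6, 13 and 21) was expressed. The design text names hydrodynamic transfection, in which DNA injected fast with much fluid enters mostly hepatocytes, so the GFP livers carry that procedure too. The labels give no age, promoter, dose or time after injection, and no batch or litter. Values are log2 signals after RMA, in which a step of 1 doubles the signal, and array medians ran between 4.32 and 4.403. Shh itself read 4.57, 4.28 and 4.63 in SHH livers 26, 28 and 31, against 3.86, 3.43 and 3.67 in GFP livers 6, 13 and 21, so each SHH liver lay above each GFP liver.

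Kupffer cells line the liver sinusoids, where they take up microbes, dying red cells and debris from portal blood, and under resting conditions they renew themselves with little help from blood monocytes. When the liver is injured, Ly6C-high monocytes enter from blood, become macrophages and can in time take on a Kupffer identity. A further macrophage state, marked by Trem2, Gpnmb and Cd9, gathers at scars and around lipid-laden cells. The members were therefore read as 9 resident Kupffer genes, 14 genes that macrophages share more broadly, 5 genes of recruited monocytes, 4 of scar-associated macrophages and 3 of dendritic cells.

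Macrophage identity depends on PU.1, an Ets family factor that binds purine-rich GGAA sites, and SpiC, its relative encoded by the member gene Spic, binds similar sites. Promoter windows of 300 bases, running from 250 before to 50 after a transcript's start (RefSeq, GRCm38.p6), were matched by symbol for 29 of the 35 members. The Ets-type motif AGGAAGT, read on both strands, stood in the windows of 10 of these 29 members (34.5%), against 10.7% of all 27025 genes with a window. The forms GAGGAAG and GGAAGTG, which overlap the motif just given, stood in 9 (31.0%) and 10 (34.5%) of the 29, against 15.4% and 12.5% of all genes. These matches are a description of letters only. The windows of the resident genes Folr2 (chr7:101857141-101857440, minus strand) and Spic (chr10:88682974-88683273, minus strand) and of the monocyte-list genes Ly6c1 (chr15:75048614-75048913, minus strand) and Chil3 (chr3:106167515-106167814, minus strand) are shown as examples from the lists whose levels are set against each other further on. They are those with the smallest unadjusted p among each list's windows with the motif AGGAAGT, which is in capitals on either strand.
Folr2: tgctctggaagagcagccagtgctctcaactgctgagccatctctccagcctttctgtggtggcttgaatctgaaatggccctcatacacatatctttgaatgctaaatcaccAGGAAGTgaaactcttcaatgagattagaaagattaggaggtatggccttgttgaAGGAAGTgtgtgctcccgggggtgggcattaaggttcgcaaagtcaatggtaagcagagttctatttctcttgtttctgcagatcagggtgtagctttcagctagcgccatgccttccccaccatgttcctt
Spic: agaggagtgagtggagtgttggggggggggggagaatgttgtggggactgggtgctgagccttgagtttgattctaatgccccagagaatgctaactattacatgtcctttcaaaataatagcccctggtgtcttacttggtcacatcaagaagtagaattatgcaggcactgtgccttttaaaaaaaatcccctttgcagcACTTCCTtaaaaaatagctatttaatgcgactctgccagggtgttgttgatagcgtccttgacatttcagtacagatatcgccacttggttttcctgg
Ly6c1: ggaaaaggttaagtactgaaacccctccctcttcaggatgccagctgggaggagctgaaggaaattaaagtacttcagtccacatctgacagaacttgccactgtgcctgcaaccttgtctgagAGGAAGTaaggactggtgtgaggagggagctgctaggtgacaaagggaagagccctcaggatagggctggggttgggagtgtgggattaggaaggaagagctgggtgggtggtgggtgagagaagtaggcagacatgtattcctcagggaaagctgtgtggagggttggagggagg
Chil3: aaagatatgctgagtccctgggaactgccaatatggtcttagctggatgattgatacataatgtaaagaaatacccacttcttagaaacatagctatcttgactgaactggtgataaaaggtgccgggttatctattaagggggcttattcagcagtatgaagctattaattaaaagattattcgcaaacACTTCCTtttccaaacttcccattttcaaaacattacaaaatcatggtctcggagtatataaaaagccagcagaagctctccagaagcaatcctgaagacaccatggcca
The motif occurs 2 times in the Folr2 window and 1 time in each of the others.

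SHH livers had a higher mean than GFP livers for 32 of the 35 members, where 43.8% of all genes tested had a higher mean. The median difference over the 35 members was 0.54 on the log2 scale, against -0.03 over all genes. No member passed the threshold over all genes (limma with Benjamini-Hochberg adjustment, adjusted p under 0.05), and neither did any other gene, so the background was 0% in either direction. At an unadjusted limma p under 0.05, 13 members were higher and 0 lower, against 3.33% of all genes higher and 4.01% lower. That count of 13 depended on single livers: it was 3 without GFP 13, 4 without SHH 31, 7 without GFP 21 and 6 with array weights, and 18 without SHH 26 or GFP 6. The median over the 35 members was 0.27 without SHH 31. In 7 members every SHH liver lay above every GFP liver, against 5.26% of all genes, and in 0 every SHH liver lay below every GFP liver, against 7.25% of all genes. Those 7 were Cd163, Mpeg1, Msr1, Tyrobp, Lyz1, Tlr4 and Plac8, and the margin for Tlr4 was under 0.01. Markers of a shared cell lineage vary together in whole tissue, so these counts are not 35 separate observations. In whole liver, a change in the number of macrophages and a change in RNA per macrophage cannot be told apart.

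**Figure D1:**
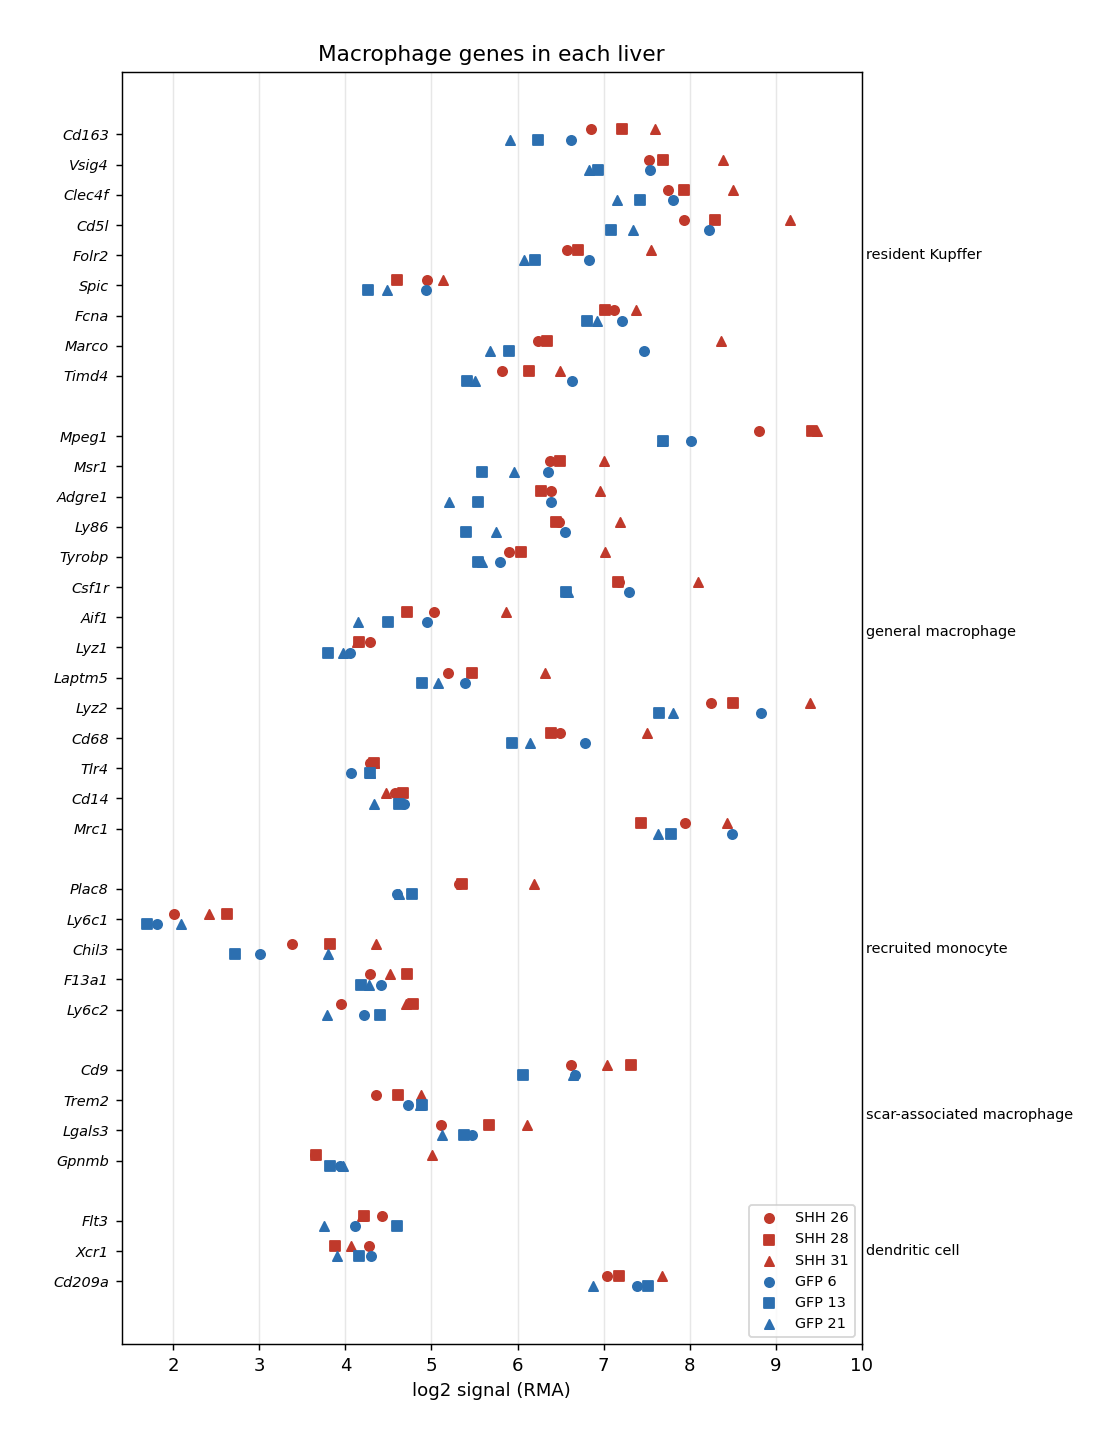
Log2 signal (horizontal axis) of the 35 macrophage genes in each liver, with 3 SHH livers (red, upper row of points) above 3 GFP livers (blue, lower row) for each gene, grouped by list; each point is 1 mouse. SHH 31 is the rightmost red point for 27 of the genes, and GFP 6 the rightmost blue point for 26.

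The resident Kupffer genes gave clear signal in these liver samples: 8 of 9 lay above the array median in all 6 livers, and Spic did so in 5. All 9 had higher means in SHH livers, with differences between 0.19 and 0.96 and a median of 0.60. Cd163, the scavenger receptor for haemoglobin bound to haptoglobin, read 6.85, 7.21 and 7.60 in SHH livers 26, 28 and 31, against 6.63, 6.24 and 5.91 in GFP livers 6, 13 and 21. It was the 1 resident gene whose groups did not overlap. Its means were 7.22 ± 0.37 in SHH livers and 6.26 ± 0.36 in GFP livers (SD, n = 3 each), which is 1.94-fold higher with a 95% interval of 0.44 to 1.48 for the log2 difference of 0.96 (limma, adjusted p = 0.409).

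Clec4f, a C-type lectin that in mouse is confined to Kupffer cells, read 7.75, 7.94 and 8.51 in SHH livers 26, 28 and 31, against 7.80, 7.42 and 7.16 in GFP livers 6, 13 and 21. GFP 6 therefore lay above SHH 26, and the groups overlapped. The difference was 0.60 (1.52-fold; 95% interval 0.09 to 1.12; limma, adjusted p = 0.633), and without SHH 31 it was 0.38.

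Vsig4, the complement receptor that captures opsonised bacteria from the blood, showed the same overlap by a narrow margin, with 7.53, 7.69 and 8.38 in SHH livers against 7.54, 6.93 and 6.83 in GFP livers (difference 0.77; limma, adjusted p = 0.576). Cd5l, a secreted protein of tissue macrophages that limits their apoptosis, read 7.93, 8.30 and 9.17 in SHH livers, against 8.22, 7.09 and 7.34 in GFP livers. SHH 31 was the highest liver and GFP 6 lay between SHH 26 and SHH 28. The Cd5l difference of 0.91 (1.89-fold; limma, adjusted p = 0.647) was 0.56 without SHH 31.

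Of the other 5 resident genes, none had an interval that left out 0. The folate receptor gene Folr2 differed by 0.57 (95% interval -0.07 to 1.21), Spic, the factor of iron-recycling macrophages, by 0.33 (-0.13 to 0.79), and Fcna, which encodes the lectin ficolin A, by 0.19 (-0.16 to 0.54). Timd4, the phosphatidylserine receptor with which long-lived resident macrophages bind dying cells, read 5.82, 6.14 and 6.49 in SHH livers, against 6.64, 5.41 and 5.51 in GFP livers. GFP 6 was its highest liver, the only resident gene for which SHH 31 was not. Marco, a scavenger receptor for bacteria and particles, had the widest spread of the 35 members, with 6.24, 6.34 and 8.36 in SHH livers against 7.47, 5.91 and 5.68 in GFP livers. Its difference of 0.63 had a 95% interval of -0.75 to 2.01, and without SHH 31 it was -0.06, so its direction rested on that liver.

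**Figure D2:**
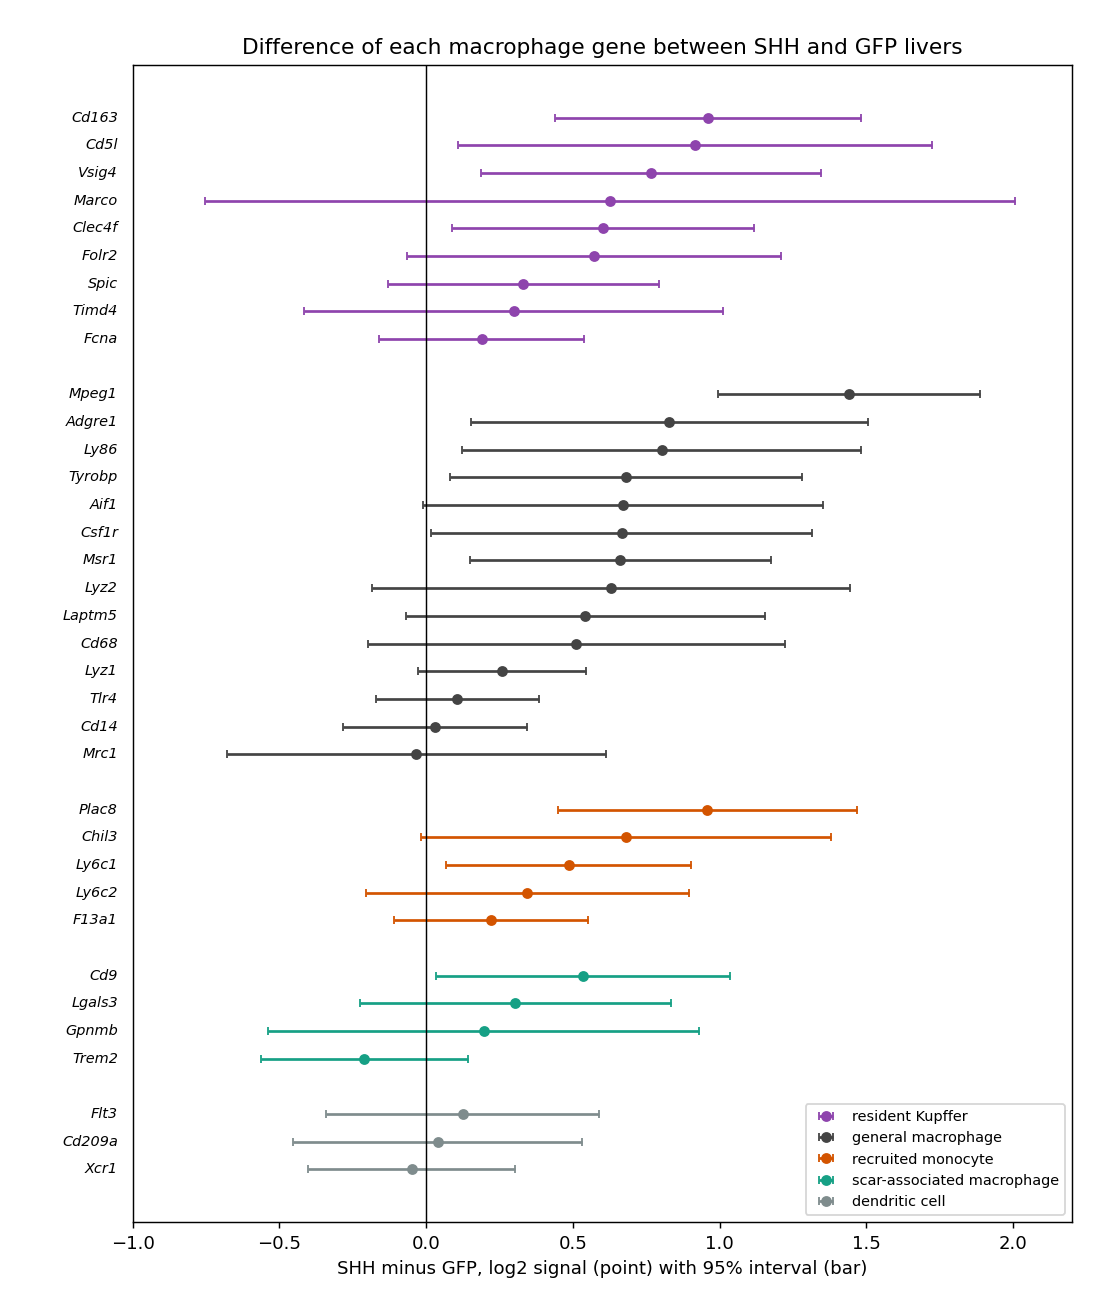
Difference of mean log2 signal, SHH minus GFP (horizontal axis, point), with its 95% interval from the limma fit (bar), for the 35 macrophage genes ordered by difference within their lists. Mpeg1 lies at 1.44 and Cd163 and Plac8 at 0.96; the intervals of Mrc1, Trem2 and all 3 dendritic cell genes span 0.

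Among the 14 genes shared by macrophages, 13 had higher means in SHH livers, with a median difference of 0.65. Mpeg1, which encodes perforin-2, a pore-forming protein that macrophages use against engulfed bacteria, had the largest difference of all members. Its signal was 8.81, 9.43 and 9.47 in SHH livers 26, 28 and 31, against 8.01, 7.69 and 7.67 in GFP livers 6, 13 and 21. The gap between the lowest SHH liver and the highest GFP liver was wider than the range within either group. Means were 9.24 ± 0.37 in SHH livers and 7.79 ± 0.19 in GFP livers (SD, n = 3 each), a difference of 1.44 (2.72-fold; 95% interval 0.996 to 1.89). Its unadjusted p of 4.71e-05 was the 6th smallest of all genes (limma, adjusted p = 0.174). Without SHH 26 it passed over all genes with a difference of 1.66 (limma, adjusted p = 0.00994), the 1 member to do so, where 0.135% of all genes were called higher.

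Adgre1 encodes an adhesion receptor that is the classic surface marker of mouse macrophages. It read 6.39, 6.27 and 6.96 in SHH livers, against 6.39, 5.55 and 5.20 in GFP livers, so GFP 6 stood level with the lower SHH livers (difference 0.83; limma, adjusted p = 0.612). Ly86, which encodes MD-1, the partner of a Toll-like receptor relative, gave 6.48, 6.45 and 7.18 in SHH livers, against 6.55, 5.40 and 5.75 in GFP livers (difference 0.80; limma, adjusted p = 0.629). Msr1, the class A scavenger receptor for modified lipoproteins, gave 6.37, 6.50 and 7.003 in SHH livers, against 6.35, 5.58 and 5.96 in GFP livers (difference 0.66; limma, adjusted p = 0.588), with groups that stood apart by 0.02. For all of these, GFP 6 was the highest GFP liver.

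Csf1r, the receptor for the growth factors that macrophages need to survive, differed by 0.67 (95% interval 0.02 to 1.32), and Tyrobp, the DAP12 adaptor of activating receptors, by 0.68 (0.08 to 1.28). Aif1, the actin-binding protein IBA1, differed by 0.67, the lysosomal genes Laptm5 and Cd68 by 0.54 and 0.51, and the lysozyme gene Lyz2 by 0.63. Lyz1, its close paralog, which mouse Paneth cells are known for, lay below the median of every array and differed by 0.26; signal of the 2 lysozymes may be shared between their probes. Sensors of bacterial lipopolysaccharide had small differences: Tlr4 differed by 0.11 (95% interval -0.17 to 0.38) and its co-receptor Cd14 by 0.03 (-0.28 to 0.34). Both were near the array medians. Arrays tend to compress changes of dim genes, but whether that held here was not tested. Members with GFP means near the 4.54 of Cd14 varied. Aif1 (GFP mean 4.53) differed by 0.67, Plac8 (4.66) by 0.96, Spic (4.56) by 0.33 and F13a1 (4.29) by 0.22. Mrc1, the mannose receptor, is made by sinusoidal endothelium as well as by macrophages. It read 7.94, 7.44 and 8.43 in SHH livers, against 8.49, 7.78 and 7.63 in GFP livers, a difference of -0.03 (95% interval -0.68 to 0.61).

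Recruited monocyte genes were dimmer. Only Plac8 of the 5 lay above the array median in all 6 livers, while Ly6c1 and Chil3 lay below it in all of them. All 5 had higher means in SHH livers, with differences between 0.22 and 0.96 and a median of 0.49. Plac8, a small cysteine-rich protein abundant in Ly6C-high monocytes and also made by other leukocytes, read 5.32, 5.35 and 6.19 in SHH livers 26, 28 and 31, against 4.60, 4.78 and 4.62 in GFP livers 6, 13 and 21. The gap between the lowest SHH liver and the highest GFP liver was 0.55, and GFP 6 was here the lowest of the 6 livers. Means were 5.62 ± 0.49 in SHH livers and 4.66 ± 0.10 in GFP livers (SD, n = 3 each), 1.94-fold higher (95% interval 0.45 to 1.47 on the log2 scale; limma, adjusted p = 0.409).

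Ly6c2, the surface antigen by which inflammatory monocytes are sorted, read 3.95, 4.79 and 4.70 in SHH livers, against 4.22, 4.397 and 3.79 in GFP livers. SHH 28 and SHH 31 lay above the GFP livers and SHH 26 lay among them. The difference was 0.34 (95% interval -0.21 to 0.89; limma, adjusted p = 0.819). Ly6c1, its near-identical neighbour, which endothelial cells also express, gave 2.01, 2.63 and 2.42 in SHH livers, against 1.81, 1.69 and 2.10 in GFP livers (difference 0.49; limma, adjusted p = 0.634). All 6 Ly6c1 values lie under the arrays' lower quartiles, which ran between 3.13 and 3.22. Probes of such close paralogs may share signal, so both genes are uncertain.

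Chil3, the chitinase-like protein Ym1, gave 3.38, 3.82 and 4.36 in SHH livers, against 3.01, 2.72 and 3.80 in GFP livers (difference 0.68; limma, adjusted p = 0.692). GFP 21 stood above SHH 26 and close to SHH 28. F13a1, the A subunit of coagulation factor XIII, gave 4.29, 4.71 and 4.52 in SHH livers, against 4.41, 4.18 and 4.27 in GFP livers (difference 0.22; limma, adjusted p = 0.804). In both genes the groups overlapped.

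Scar-associated macrophage genes were mixed, with 3 higher means, 1 lower mean and a median difference of 0.25. Cd9, a tetraspanin that many cell types carry, read 6.62, 7.32 and 7.04 in SHH livers, against 6.67, 6.06 and 6.64 in GFP livers (difference 0.54; limma, adjusted p = 0.665). A second, dimmer Cd9 probe set differed by -0.42, so the direction of Cd9 depends on the probe set. Lgals3, which encodes the lectin galectin-3, gave 5.11, 5.67 and 6.10 in SHH livers, against 5.47, 5.38 and 5.12 in GFP livers (difference 0.30; limma, adjusted p = 0.835).

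Trem2, the lipid receptor that defines the scar-associated state, had the lowest difference of all members. It read 4.36, 4.61 and 4.88 in SHH livers, against 4.72, 4.89 and 4.87 in GFP livers, a difference of -0.21 (95% interval -0.56 to 0.14; limma, adjusted p = 0.824). Gpnmb, a glycoprotein of lysosome-rich macrophages, read 3.65, 3.66 and 5.01 in SHH livers, against 3.94, 3.83 and 3.97 in GFP livers, so SHH 31 was above and the other SHH livers below all GFP livers. Its difference was 0.20, and -0.25 without SHH 31.

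The dendritic cell genes had the smallest median difference of the 5 lists, 0.04. Flt3, the receptor for the growth factor of dendritic cell precursors, gave 4.42, 4.22 and 4.19 in SHH livers, against 4.12, 4.59 and 3.75 in GFP livers (difference 0.12; 95% interval -0.34 to 0.59). Xcr1, the chemokine receptor of cross-presenting dendritic cells, lay below the array median in every liver, with 4.27, 3.87 and 4.07 in SHH livers against 4.29, 4.16 and 3.91 in GFP livers (difference -0.05; 95% interval -0.40 to 0.30). Cd209a, a lectin of monocyte-derived dendritic cells, gave 7.04, 7.17 and 7.68 in SHH livers, against 7.39, 7.52 and 6.88 in GFP livers (difference 0.04; 95% interval -0.45 to 0.53). The groups overlapped in all 3 genes.

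The livers were then compared for the balance between resident and recruited genes. Each gene was centred on its mean over the 6 arrays, and the median over each list was taken per liver. Centring removes differences in level between genes, but not any compression of changes in dim genes, and the recruited genes were dimmer. Resident genes stood at -0.01, 0.14 and 0.86 in SHH livers 26, 28 and 31, against 0.18, -0.50 and -0.60 in GFP livers 6, 13 and 21. Recruited genes stood at -0.11, 0.32 and 0.39 in SHH livers, against -0.30, -0.37 and -0.13 in GFP livers. The order of livers differed between the lists: GFP 6 was above SHH 26 and SHH 28 for the resident genes and below every SHH liver for the recruited ones. The recruited list had no overlap between groups, by a margin of 0.02 between SHH 26 and GFP 21, and the resident list overlapped through GFP 6.

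Recruited minus resident came to -0.10, 0.18 and -0.47 in SHH livers 26, 28 and 31, against -0.48, 0.13 and 0.48 in GFP livers 6, 13 and 21. All 3 SHH values lay within the range of the GFP values, and the lowest value of each group, in SHH 31 and GFP 6, was almost the same. Means were -0.13 ± 0.32 in SHH livers and 0.04 ± 0.48 in GFP livers (SD, n = 3 each), a difference of -0.17, smaller than the SD of either group. No shift of the balance was therefore detectable with 3 livers a group, and its sign was not stable. It was 0.06 without GFP 21 and 0.04 without SHH 31. It kept its negative sign at -0.047 with list means in place of medians, at -0.061 without Ly6c1 and at -0.32 with the scar-associated genes added to the recruited list. It was 0.32 when genes below the median level were left out of both lists, which leaves Plac8 as the only recruited gene.

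**Figure D3:**
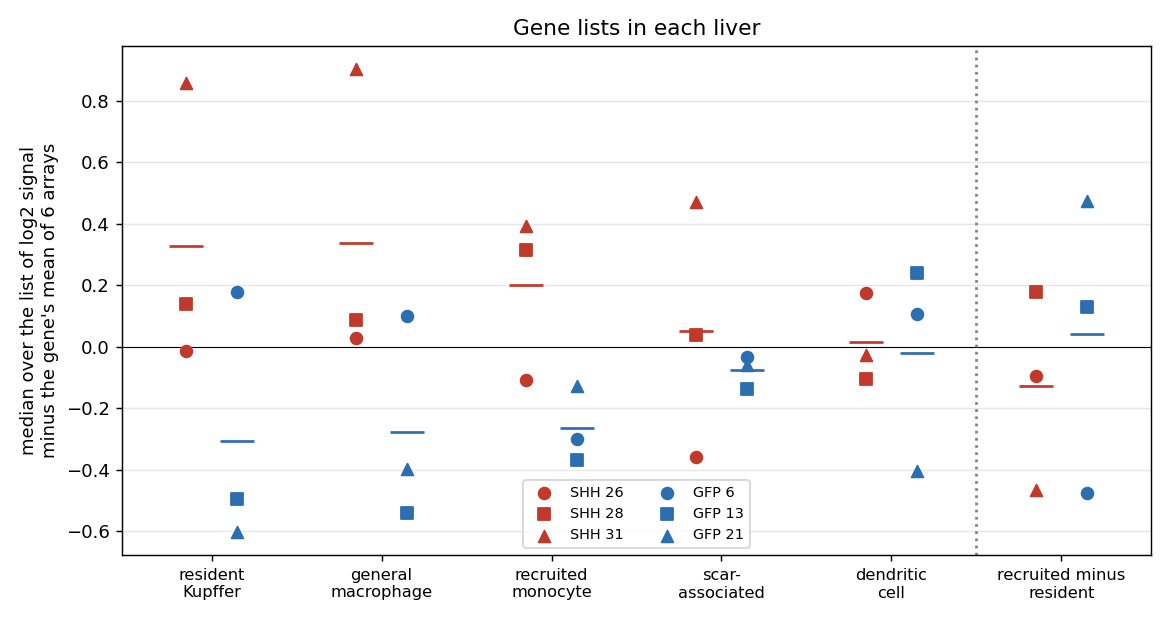
Median over each list of log2 signal centred per gene on the mean of the 6 arrays (vertical axis), for 3 SHH livers (red) and 3 GFP livers (blue), with group means as short lines; the last column is the recruited minus the resident value of each liver. SHH 31 stands highest for the resident genes at 0.86, GFP 6 at 0.18 lies above SHH 26 and SHH 28, and in the last column the groups overlap.

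A single liver in each group stood apart. SHH 31 was the highest of the 6 livers for 24 of the 35 members and the lowest for 0 of them, where 18.8% of all genes were highest in that liver. Lists of other cell types, given further on, shared this in part. Centred medians peaked in SHH 31 for leukocyte common (0.84), T and natural killer (0.69), B and plasma cell (0.35) and sinusoidal endothelial genes (0.32). Those of neutrophil and hepatocyte genes peaked elsewhere, at 0.46 in SHH 28 and 0.05 in SHH 26. Within the GFP group, GFP 6 was the highest for 26 members, including all 9 resident and 13 of the 14 general genes, where 28.3% of all genes were highest in that liver. The lowest of the 6 livers was GFP 13 for 16 members and GFP 21 for 12, where 13.7% and 16.3% of all genes were lowest in these livers. Within the SHH group, SHH 26 was the lowest for 23 members, including all 5 recruited and all 4 scar-associated genes, where 33.6% of all genes were lowest in that liver within the group.

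The median of the resident list kept its direction without these livers, although that of Marco did not. The resident median of 0.60 was 0.27 without SHH 31, 0.80 without GFP 6 and 0.52 without both. The recruited median of 0.49 was 0.43, 0.46 and 0.35 in the same settings. Without GFP 6, 23 members were higher in every SHH liver than in any GFP liver, against 8.99% of all genes, and 0 members passed the threshold over all genes. With both livers left out the number was also 23, against 14.4% of all genes, and without SHH 31 alone it was 7, against 9.74%. Without SHH 26 it was 17, against 10.7%. Trem2 and Gpnmb were lower in every SHH liver than in any GFP liver without SHH 31 (against 13.6% of all genes) and without both SHH 31 and GFP 6 (against 20.8%).

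**Figure D4:**
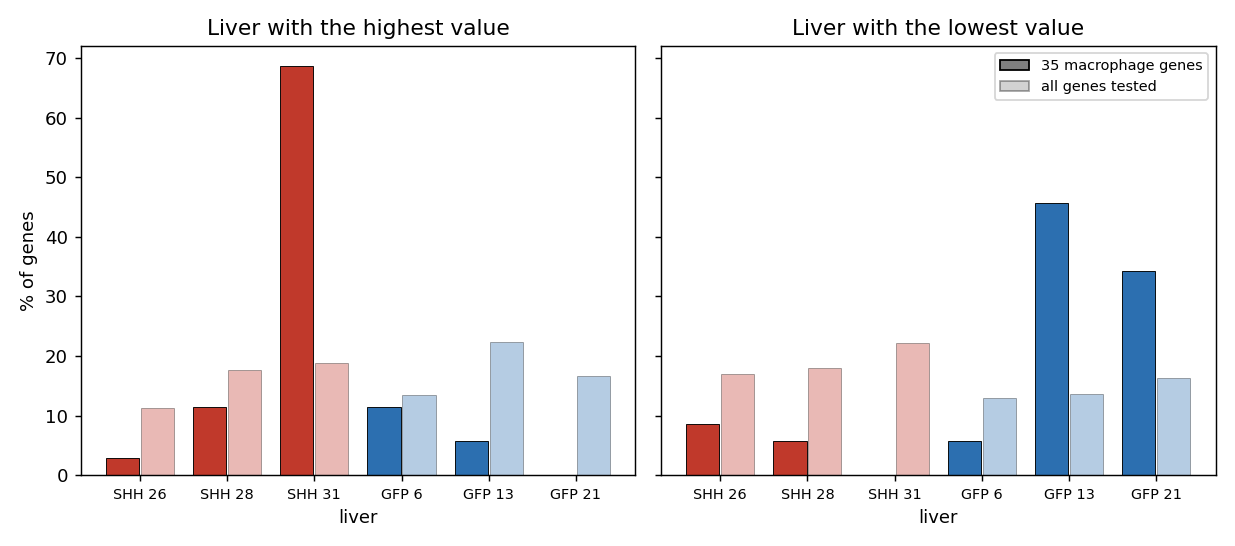
Percentage of genes (vertical axis, from 0) whose highest value (left panel) or lowest value (right panel) fell in each liver, for the 35 macrophage genes (solid bars) and for all 22180 genes tested (pale bars); SHH livers are red and GFP livers blue. For 24 of the 35 members the highest value was in SHH 31, and for 16 and 12 the lowest was in GFP 13 and GFP 21.

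Other genes of the macrophage system were read from lists outside the 35 members, and none of their genes passed over all genes in limma. Of 19 further monocyte and recruited macrophage genes, 16 had higher means, against 43.8% of all genes, and the median difference was 0.43. An unadjusted limma p under 0.05 with a higher mean was found for 10 of them, against 3.33% of all genes. Not all of these genes are confined to monocytes. Fn1, 1 of the 10, had means of 11.86 in SHH livers and 11.52 in GFP livers, near the hepatocyte list means given further on. Ccr2, the chemokine receptor by which monocytes leave the marrow, read 4.13, 5.03 and 5.23 in SHH livers 26, 28 and 31, against 3.59, 3.97 and 3.93 in GFP livers 6, 13 and 21 (difference 0.96; limma, adjusted p = 0.504). Itgam, the integrin CD11b of monocytes and neutrophils, read 4.46, 5.04 and 5.21 in SHH livers, against 4.04, 4.18 and 3.98 in GFP livers (difference 0.84; limma, adjusted p = 0.409). In both genes SHH 26 was the lowest SHH liver and still above every GFP liver.

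Of 21 further Kupffer cell genes, 17 had higher means and the median difference was 0.27. At an unadjusted limma p under 0.05, 4 of them were higher and 1 lower, against 3.33% and 4.01% of all genes. C1qc, a chain of complement C1q that macrophages secrete, differed by 0.62, and Gas6, a bridging ligand for the uptake of dying cells, by 0.63. All 11 further scar-associated genes had higher means, with a median of 0.22; the lipoprotein lipase gene Lpl differed by 0.57 and the fatty acid binding protein gene Fabp5 by 0.78, with 7.54 in SHH 28 and 5.48 to 6.02 in the other livers. Of 15 genes of macrophage activation states, 10 had higher means, with a median of 0.05. Among them, the cytokine gene Il1b read 5.68, 5.96 and 6.92 in SHH livers, against 5.13, 4.55 and 4.55 in GFP livers (difference 1.44; limma, adjusted p = 0.409), and the costimulatory gene Cd80 differed by 0.35.

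Lists of regulators and growth factors were flatter, though not every gene in them. Of 15 transcription factor genes of macrophages and dendritic cells, 8 had higher and 7 lower means, with a median of 0.01. Among those with higher means, Spi1, which encodes PU.1, differed by 0.50 (95% interval -0.13 to 1.12) and Irf8 by 0.56 (-0.08 to 1.19). Both were close to the member median of 0.54. Id3, a regulator needed for Kupffer cells to develop, differed by 0.34, and Bcl6, a repressor that hepatocytes also express, by -1.26 (95% interval -2.46 to -0.06; limma, adjusted p = 0.667). Of 7 genes for colony-stimulating factors, IL-34 and their receptors, 5 had higher means, with a median of 0.15. The receptor genes Csf3r and Csf2rb differed by 0.64 and 0.34, and Csf3r is also counted among the neutrophil genes given further on.

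Markers of other leukocytes also had higher means in SHH livers, and their part in these differences was not tested. Leukocyte common genes had higher means in 7 of 8, with list mean levels of 6.26 to 7.04 in SHH livers against 5.70 to 6.18 in GFP livers. All 14 neutrophil genes had higher means, with list mean levels of 3.84 to 4.67 in SHH livers against 3.61 to 3.82 in GFP livers. The same held for 9 of 9 B and plasma cell genes (5.21 to 5.61 in SHH livers against 4.92 to 5.08 in GFP livers) and 11 of 12 T and natural killer cell genes (3.99 to 4.73 in SHH livers against 3.83 to 3.98 in GFP livers). Median differences were 0.62 for leukocyte common and 0.48 for neutrophil genes. They were 0.32 for B and plasma cell genes and 0.44 for T and natural killer cell genes. With each gene centred, the neutrophil median was -0.24 in SHH 26, below -0.17 in both GFP 6 and GFP 13. In the other leukocyte lists the centred medians did not overlap between groups, but the nearest livers were close. They were -0.12 in SHH 28 against -0.15 in GFP 21 for T and natural killer cell genes. For leukocyte common genes they were 0.02 in SHH 26 against -0.02 in GFP 6, and for B and plasma cell genes -0.06 in SHH 26 against -0.13 in GFP 6. Genes of sinusoidal endothelium, a cell type that also makes Mrc1, had lower means in 9 of 12, with a median difference of -0.12 and levels of 6.27 to 6.95 in SHH livers against 6.52 to 6.95 in GFP livers. Among SHH livers the endothelial level was highest in SHH 31 and lowest in SHH 28, and among GFP livers highest in GFP 6. That was the same order of livers within each group as for Mrc1. The resident Kupffer list had the same order among GFP livers and was also highest in SHH 31, with SHH 26 as its lowest SHH liver. The cell source of the Mrc1 signal was not tested. Hepatocyte genes were level, with a median difference of 0.00 and list means of 11.996 to 12.08 in SHH livers against 11.98 to 12.03 in GFP livers.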

How the data were processed

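RMA (named as the tool per the submitters' processing notes; version not given in the sources used here) had turned the array signals into deposited log2 values, 1 column per mouse, before this work; RMA corrects background, makes array distributions alike and summarises probes. The table held 41345 probe sets. Platform annotation named 1 gene for 23521, several for 1814 and none for 16010; genes named only through a probe set of their own gave 22180 genes, 1 probe set each (highest mean over 6 arrays). Symbols checked through gene identifiers against RefSeq (GRCm38.p6) changed for 0 probe sets; 193 had no entry.

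SHH minus GFP was fitted with limma 3.58.1 in R 4.3.3 (lmFit, eBayes, two-sided), with no filter, covariate or pairing, and Benjamini-Hochberg adjustment over all genes at 0.05. Errors are SD (n = 3 mice) or 95% limma intervals; the number of arrays limits precision. Exact permutation of 3 against 3 cannot go below p = 0.1 and was not used for single genes. List medians and the recruited minus resident balance are descriptions without a test. The members, lists and role groups were chosen with earlier results of these data known. All members were named. Values in every liver were given for Clec4f, Cd163, Ly6c2 and at least the 4 members per list with the smallest p. For each further list 2 genes were named, with Spi1, Irf8 and Fn1 added. Other genes of those lists were not named.

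On simulated data for SHH against GFP (22180 genes, 200 changed, 10 runs), 71.7% of genes changed by 1 and 98.5% of those changed by 2 on the log2 scale were recovered, with 4.82% of calls false. These shares do not carry over to the members. Cd163 and Plac8 differed by 0.96 and did not pass, and a change near the member median of 0.54 was not simulated. Alternatives were averaging a gene's probe sets, choosing the most variable one by interquartile range, keeping genes above the median level, quantile normalizing again, equalising array medians, a trended and robust prior, array weights, a threshold of 0.1, list means, changed lists and each mouse left out; leaving out SHH 31 and GFP 6 together was added after the data were seen.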

Additional observations from a re-analysis of the deposited data

How the results depend on the processing

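No gene passed over all genes at either threshold or in any setting tried except without SHH 26, where 30 genes were higher and 16 lower and Mpeg1 was the 1 member called. With each mouse left out in turn, 7 to 23 members were higher in every SHH liver than in any GFP liver and 0 to 2 lower. The shares of all genes higher and lower were 8.99% and 12.9% without GFP 6, 9.74% and 13.6% without SHH 31, and 10.7% and 13.2% without SHH 26. All exceed the 5.26% and 7.25% found with every liver kept. For the other mice left out these shares are not given here. The number called higher was 0 to 1 of the members and 0 to 30 of all genes, and the number called lower 0 to 16 of all genes. The resident median ran between 0.27 and 0.80, the recruited between 0.35 and 0.66, the general between 0.31 and 0.81, and the recruited minus resident balance between -0.39 and 0.06. Without both SHH 31 and GFP 6 the members that did not overlap numbered 23 higher and 2 lower, against 14.4% and 20.8% of all genes. With genes above the median level only, the recruited median was 0.96 and the balance 0.32, since Plac8 alone was left in that list, and the same lists within the full table also gave 0.32. With the probe set of largest interquartile range, 1 member, Cd9, was lower in every SHH liver (-0.42).

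Signs changed in 8 members, among them Marco and Cd9, whose differences were 0.63 and 0.54 with all livers. With each mouse left out in turn, Marco ran between -0.065 and 1.19, Mrc1 between -0.28 and 0.23, Cd14 between -0.077 and 0.098, Gpnmb between -0.25 and 0.42, Flt3 between -0.078 and 0.34, Xcr1 between -0.16 and 0.050, and Cd209a between -0.15 and 0.17. Cd209a was also -0.069 with the mean of its probe sets and -0.060 with array weights. Without both SHH 31 and GFP 6, Cd209a was -0.090, Xcr1 0.038 and Gpnmb -0.24. The cause was not tested. In all, 139 other values of summary results kept within 1.5 times a count or 1 replicate SD, and 475 of single genes kept their direction and side of the threshold. These tallies do not measure stability, because part of them could not change. The trended and robust prior leaves every difference as it was, and only 2 members had more than 1 probe set. No paired analysis was possible because no mouse number occurs in both groups. Ly6c1, Chil3, Lyz1 and Xcr1 lay below the median of every array, so the size of their differences is uncertain.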
